A study of Saccharomyces cerevisiae with 2 samples.

Results

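The genes described here encode the cytoplasmic translation factors of budding yeast (Saccharomyces cerevisiae). They are 38 named nuclear genes of 6002 nuclear protein-coding genes, listed by name and function, with earlier results of these data known. Of them 25 encode initiation factors, 11 elongation factors and 2 termination factors. DNA associated with RNA:DNA hybrids was captured with the S9.6 antibody and sequenced (DRIP-seq), and the deposited peaks of 1 immunoprecipitate (S9.6 IP), set beside 1 input with no values analysed here, were laid over these genes. Both samples came from asynchronous mid-log cells of the MATa strain WRBb-9D, grown in YPAD medium at 30 °C. The strain carries his3-11,15, trp1-1, ade2-1, can1-100 and an allele of leu2, lacks BAR1 (bar1-delta), has the tagged allele RRM3::FLAG::KAN and holds ura3::URA3/GPD-Tk(7x). None of these loci is a translation factor gene. The labels call the samples wild type, and no sample treated to remove hybrids was analysed here.

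Translation begins when initiation factors (eIFs) bring the small ribosomal subunit, the initiator tRNA and the capped mRNA together and the large subunit joins. Elongation factors (eEFs) then deliver each aminoacyl-tRNA and move the ribosome along, and release factors end the chain at a stop codon. Many of these proteins are abundant in growing yeast, and several are made from duplicated genes. An RNA:DNA hybrid forms where a transcript pairs with its template strand, so the antibody can bind along transcribed genes. The comparisons ask which translation factor genes lay under S9.6 peaks, in which part of the gene, and how duplicated genes differed.

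A gene was called touched when at least 1 bp of it lay inside a peak and covered when at least 50% of its length did. Peaks touched 13 of the 38 translation factor genes (34.2%), where 21.2% of all nuclear protein-coding genes were touched. They covered 3 of 38 (7.89%), where 4.42% of all were covered. The 3 were ANB1, FUN12 and TEF1, and TEF2, at 48.8% of its length, lay just under the limit. The mean share of a translation factor gene inside peaks was 13.6%, and the median was 0%, as it was over all genes. To take length into account, each gene was set beside the 200 nuclear protein-coding genes nearest to it in length, without retrotransposon (Ty) ORFs. Those genes had a mean of 5.13% inside peaks, 20.7% were touched and 2.54% covered. The mean cover of the translation factors was thus 2.64 times that of genes of like length, and 1.44 times without the 3 covered genes, which were left out after their values were seen. With 1 IP library no value has a replicate check, no p-value is given, and differences between lists were not tested.

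**Figure D1:**
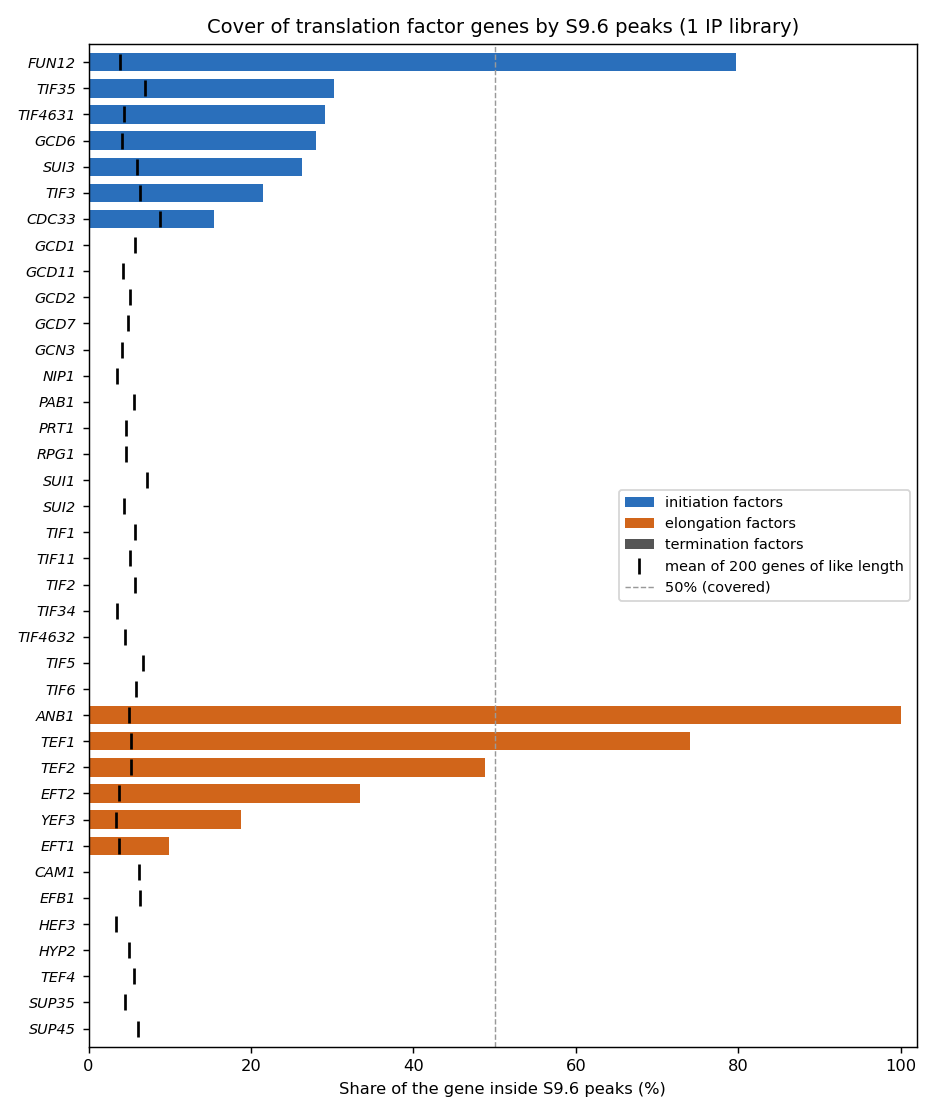
Share of each translation factor gene inside S9.6 peaks (bars, percent of gene length, 1 IP library), sorted within initiation, elongation and termination factors. Black ticks give the mean of the 200 genes of like length for that gene and the dashed line marks 50%. The bars of FUN12, ANB1 and TEF1 pass the line, and 25 genes have no bar.

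By role, elongation factor genes had the largest share of their bases inside peaks. Of 11 elongation factor genes, 6 were touched and 2 covered, and 20.5% of their bases lay inside peaks. Of 25 initiation factor genes, 7 were touched and 1 covered, with 12.3% of bases inside peaks. This order rested on near-identical copies: without TEF1, TEF2, EFT1 and EFT2 the share was 9.65% in 7 elongation factor genes, and without TIF1 and TIF2 it was 13.1% in 23 initiation factor genes, copies left out after their values were seen. Neither of the 2 termination factor genes was touched. Genes of like length were touched at 21.0% for the elongation factors and 20.4% for the initiation factors, and covered at 2.05% and 2.76%. Over all nuclear protein-coding genes 21.2% were touched and 4.42% covered. The 1 covered initiation factor gene of 25 (4%) was thus near the share of all genes. Mean cover was 25.9% for elongation factors, 5.40 times that of genes of like length, and 9.21% for initiation factors, 1.75 times. A few genes carried these ratios: without TEF1, TEF2 and ANB1 the elongation ratio was 1.66, and without FUN12 the initiation ratio was 1.18.

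Among the elongation factors, TEF1 and TEF2 encode the same protein, eEF1A, which carries aminoacyl-tRNA to the ribosome. TEF1 (chromosome XVI, 700594 to 701970, plus strand) was 74.1% inside a single peak of 1400 bp with a deposited score of 73. That peak ran from 700951 to 702350, so it began 357 bp into the gene, passed its end by 380 bp and took in 237 bp of GRS2, the convergent neighbour. TEF2 (chromosome II, 477671 to 479047, plus strand) was 48.8% inside a peak of 825 bp with a score of 82, from 478376 to 479200. Both peaks therefore left the first part of the gene free, crossed its end and stopped in the sequence beyond. Their summits lay at 90.3% of the length of TEF1 and at 95.6% of that of TEF2. Only 3 of the 200 genes of like length had more cover than either gene. Neither gene had a peak in the 500 bp before it, and the nearest tRNA gene or Ty ORF was 10947 bp from TEF1 and 71639 bp from TEF2.

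The eEF1B complex, which exchanges the guanine nucleotide on eEF1A, had no cover in its genes. EFB1 (chromosome I, 142174 to 143160) encodes the catalytic alpha subunit, and TEF4 (chromosome XI, 282891 to 284455) and CAM1 (chromosome XVI, 464401 to 465648) encode forms of the gamma subunit. All 3 had 0% inside peaks. Peaks reached 52 bp into the 500 bp before EFB1 and 35 bp into those before TEF4. Most of the peak before TEF4 lay over RRP14, a gene for a ribosome biogenesis protein. EFB1 and TEF4 each hold a snoRNA gene within their bounds, SNR18 and SNR38, and neither snoRNA gene had a base inside a peak. The nearest peak to CAM1 was 9902 bp away.

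EFT1 and EFT2 encode one protein, eEF2, the translocase that moves the ribosome by a codon. EFT1 (chromosome XV, 575098 to 577626, plus strand) was 9.89% inside 1 peak of 250 bp with a score of 25. That peak had its summit at 63.9% of the gene. EFT2 (chromosome IV, 1243230 to 1245758, plus strand) was 33.5% inside 2 peaks with scores of 21 and 26. The first of these crossed the start of the gene, with 154 bp before it and 371 bp inside it, and the second lay within the gene near its end, from 1245151 to 1245625. Another peak, with a score of 23, lay wholly before the gene. All these scores are near the nuclear median of 24, and 31 of the 200 genes of like length had more cover than EFT1, and 5 had more than EFT2.

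YEF3 and HEF3 encode forms of eEF3, an ATPase of fungal ribosomes that helps to clear the exit site, and YEF3 is the form used in growing cells. YEF3 (chromosome XII, 636780 to 639914, plus strand) was 18.8% inside 2 peaks. A peak of 300 bp with a score of 43 lay in the middle of 3 equal parts of the gene, and one of 1350 bp with a score of 73 covered its last 289 bp. The larger peak ran 1061 bp past the gene and held more of SSP120, the next gene (659 bp), than of YEF3. Its summit lay at 91.2% of the length of YEF3, 12 bp from the edge of the peak. HEF3 (chromosome XIV, 606319 to 609453) had no peak in the gene or its flanks, and the nearest was 8968 bp away.

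HYP2 and ANB1 encode eIF5A, a hypusine-containing protein named as an initiation factor that acts in elongation, and yeast makes the HYP2 form in air and the ANB1 form when oxygen is short. HYP2 (chromosome V, 85676 to 86149, plus strand) had 0% inside peaks. A peak of 275 bp with a score of 25 took up 174 bp of the 500 bp after it, and it lay over MTC7 and the tRNA gene YNCE0005W. ANB1 (chromosome X, 524908 to 525381, minus strand) lay wholly inside a peak of 3825 bp with a score of 118, the highest score over any translation factor gene. This peak, from 523326 to 527150, also touched TAH11, CYC1, UTR1 and the tRNA gene YNCJ0023C, and its summit lay beyond the end of ANB1. With every peak at a tRNA gene or Ty ORF left out, the cover of ANB1 was 0%. For both eIF5A genes, then, the peak at hand also touched a tRNA gene. The part of the tRNA genes in these values was not tested.

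Of 7 pairs of duplicated genes, 5 differed in cover. TEF1 and TEF2 were 25.3 percentage points apart in cover (TEF1 minus TEF2), EFT1 and EFT2 -23.6 points, YEF3 and HEF3 18.8, HYP2 and ANB1 -100, and TIF4631 and TIF4632 29.2. TEF4 and CAM1, and TIF1 and TIF2, had 0% in both genes. The 5 pairs that differed are thus all the pairs with any cover, and the count says no more than that. Places could be compared base by base in pairs of equal length. In TEF1 and TEF2 all 672 bp covered in TEF2 were covered at the same place in TEF1. In EFT1 and EFT2, by contrast, 250 and 846 bp were covered and none at the same place. TEF1 and TEF2, EFT1 and EFT2, and TIF1 and TIF2 are near-identical in their coding sequence, and how reads that match several places were handled is not stated in the sources. The values within these 6 genes are therefore uncertain as to which copy the reads came from. Of the 11 elongation factors, 7 remain without the TEF1, TEF2, EFT1 and EFT2 genes, and 2 of these 7 were touched. Over all nuclear protein-coding genes 21.2% were touched, so a count of 2 in 7 genes says little.

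**Figure D2:**
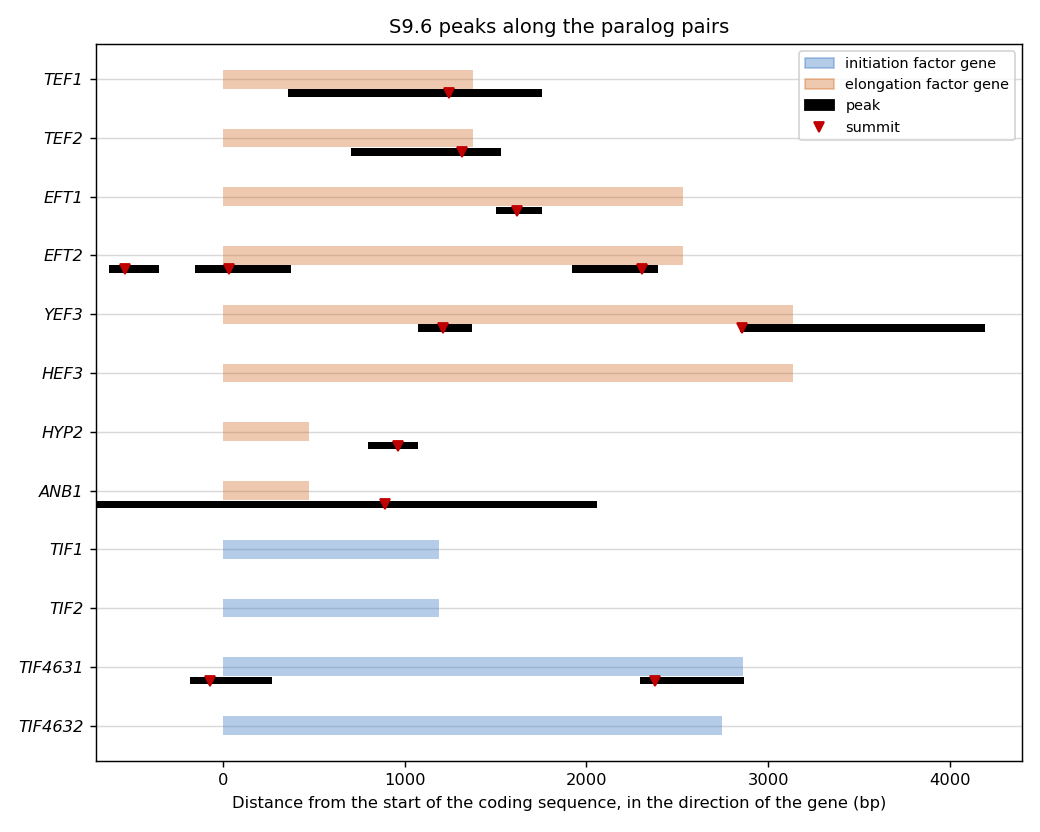
Peaks (black bars) and their summits (red triangles) along 6 of the 7 paralog pairs, drawn to scale in bp from the start of each gene in its direction of transcription. Shaded boxes are the genes. The peaks of TEF1 and TEF2 lie over the same end of the gene, those of EFT1 and EFT2 do not share a place, and HEF3, TIF1, TIF2 and TIF4632 have none; the ANB1 peak runs past the left edge of the plot.

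Among initiation factors, FUN12 had the most cover. It encodes eIF5B, the GTPase that joins the large subunit to the small one (chromosome I, 76427 to 79435, plus strand). It lay 79.7% inside a single peak of 2600 bp with a score of 89, and none of the 200 genes of like length had more. The peak, from 76226 to 78825, began 201 bp before the gene and ended short of its last 610 bp. It touched no other gene, and its summit lay at 76.8% of the gene. TIF5 (chromosome XVI, 648704 to 649921), for eIF5, which makes eIF2 hydrolyse its GTP, had no peak in the gene or its flanks. TIF6, for eIF6, which keeps free large subunits apart from small ones and acts in their assembly, had 0% in the gene (chromosome XVI, 592332 to 593069). A peak with a score of 32 took up 294 bp of the 500 bp before TIF6 and reached into DSS4.

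Of 7 genes for the cap-binding, helicase and poly(A)-binding factors, 3 were touched and none covered, with 10.4% of bases inside peaks. Over all nuclear protein-coding genes 21.2% were touched and 4.42% covered, with 7.03% of bases inside peaks. TIF4631 encodes eIF4G1, the scaffold that binds the cap-binding protein, the helicase and the poly(A)-binding protein. It was 29.2% inside 2 peaks, one at each end (chromosome VII, 824059 to 826917, plus strand). The first peak, of 450 bp, crossed the start with its summit 71 bp before the gene, and its score of 82 ranked 85th of 1687 nuclear peaks. The second, with a score of 29, crossed the end. Its paralog TIF4632, for eIF4G2 (chromosome VII, 406860 to 409604), had no peak in the gene or its flanks. The tRNA gene YNCG0037W lies 503 bp before TIF4631, and the nearest to TIF4632 is 1318 bp away. Peaks took up 43.7% of the 10 kb on either side of TIF4631 and 26.3% of that around TIF4632. The part of these surroundings in the difference was not tested.

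CDC33 encodes eIF4E, the cap-binding protein (chromosome XV, 60383 to 61024, minus strand). Peaks took up 376 bp of the 500 bp before it and 343 bp of those after it, and only 15.4% of the gene, at its start. The peak that crossed the start of CDC33 had its summit 86 bp into the gene and also touched RTC1. The peak after the gene touched ARG8. TIF3, for eIF4B, which stimulates the helicase (chromosome XVI, 868645 to 869955, minus strand), was 21.4% inside a peak with a score of 43 that crossed its end. The summit of that peak lay at 99.5% of the gene. TIF1 (chromosome XI, 554987 to 556174) and TIF2 (chromosome X, 153504 to 154691), which both encode the helicase eIF4A, had no peak in the genes or flanks, and neither did PAB1, for the poly(A)-binding protein (chromosome V, 510373 to 512106). TIF1 was the translation factor gene farthest from a peak, at 22301 bp.

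Of the 3 genes for eIF2, the GTPase that carries the initiator tRNA, 1 was touched, where 21.2% of all nuclear protein-coding genes were. SUI3, for the beta subunit (chromosome XVI, 100496 to 101353, plus strand), was 26.2% inside a peak of 225 bp with a score of 15, where the lowest in the list is 13. SUI2 (chromosome X, 451020 to 451934) and GCD11 (chromosome V, 205251 to 206834), for the alpha and gamma subunits, had 0%, although a tRNA gene lies 522 bp from GCD11. Of the 5 genes for eIF2B, which reloads eIF2 with GTP, 1 was touched (20%), near the 21.2% of all genes. GCD6, for the catalytic epsilon subunit (chromosome IV, 884727 to 886865, plus strand), was 28.0% inside 2 peaks. The peak inside the gene, of 550 bp, scored 52, and the one across its start, of 350 bp, scored 24 and also touched the tRNA gene YNCD0017W. A further peak with a score of 61 lay before the gene over the Ty ORFs YDR210C-D and YDR210C-C. Peaks took up 46.0% of the 10 kb on either side of GCD6, the highest value of the 38 genes, and its cover was 25.7% with every peak at a tRNA gene or Ty ORF left out. GCD1 (chromosome XV, 813984 to 815720), GCD2 (chromosome VII, 644860 to 646815), GCD7 (chromosome XII, 718317 to 719462) and GCN3 (chromosome XI, 488738 to 489655), for the other subunits, had no peak in the genes or flanks.

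The genes of eIF3, the large scaffold complex on the small subunit, had 1 of 5 touched (20%). This was near the 21.2% of all nuclear protein-coding genes. Of their bases 2.62% lay inside peaks, the lowest share of the initiation complexes with any cover. That share rests on 1 peak, so it says little about the complex. TIF35, for the g subunit (chromosome IV, 1324477 to 1325301, minus strand), was 30.2% inside a peak of 300 bp with a score of 26 that crossed its end. RPG1 (chromosome II, 395383 to 398277), PRT1 (chromosome XV, 1015361 to 1017652), NIP1 (chromosome XIII, 892988 to 895426) and TIF34 (chromosome XIII, 557481 to 558524), for the a, b, c and i subunits, had none. SUI1, for eIF1 (chromosome XIV, 187170 to 187496), and TIF11, for eIF1A (chromosome XIII, 789378 to 789839), are the small factors that keep the scanning subunit open, and neither had a peak in the gene or flanks.

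**Figure D3:**
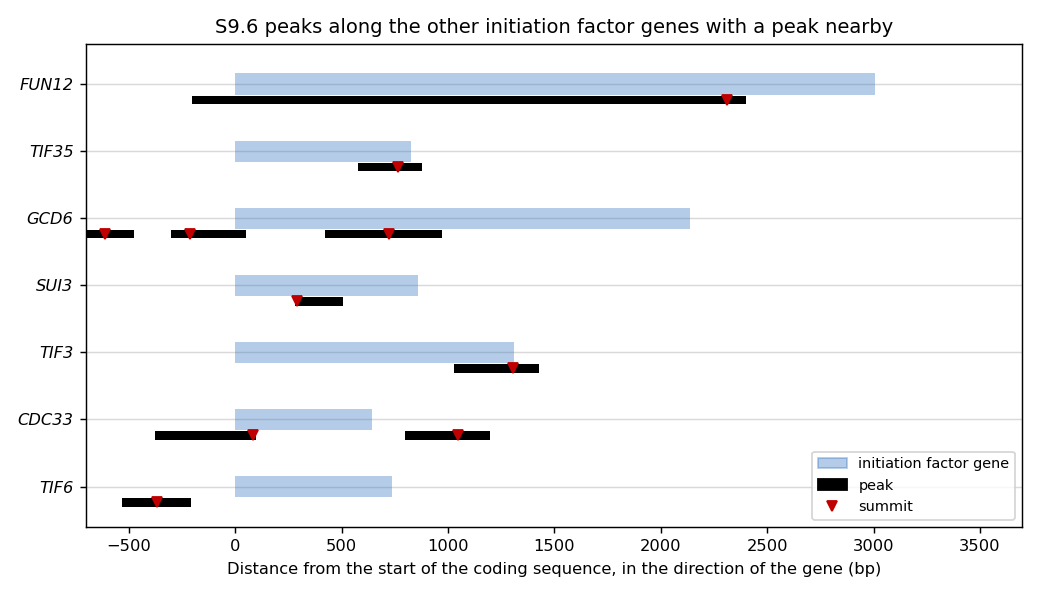
Peaks (black bars) and summits (red triangles) along the other 7 initiation factor genes that had a peak in the gene or its 500 bp flanks, in bp from the start of each gene in its direction of transcription. FUN12 has 1 peak over most of the gene, TIF35 and TIF3 have one across the end, and TIF6 has one only before the gene; the leftmost GCD6 peak runs past the edge of the plot.

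The termination factors had no cover at all. SUP35, for eRF3, the GTPase known for its prion form (chromosome IV, 808324 to 810381), and SUP45, for eRF1, which reads the stop codon (chromosome II, 530869 to 532182), had 0% inside peaks and in their flanks. The nearest peak was 2623 bp from SUP35 and 5568 bp from SUP45. With 2 genes, and 22.8% of genes of like length touched, a count of 0 says little about the role.

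Cover lay more towards the end of the gene than its start, mostly through TEF1 and TEF2. Each gene was divided into 3 equal parts. In the 38 genes the last part was 17.0% inside peaks and the first part 10.3%, a difference of 6.72 percentage points, where genes of like length differed by 0.634 points. For elongation factors the last part had 35.6% and the first part 15.1%, a difference of 20.5 points. Without TEF1 and TEF2, left out after their values were seen, the difference was 5.33 points for elongation factors and 2.16 points for all members. All 6 touched elongation factor genes had at least as much cover in the last part as in the first, with ANB1 equal. For initiation factors the difference was 1.19 points, and -0.48 points with 200 bp around each summit in place of the whole peak. The whole peaks gave more cover in the last part in 3 genes (TIF3, TIF35 and TIF4631) and in the first in 4 (CDC33, FUN12, GCD6 and SUI3). The cover of SUI3 lay mostly in its middle part, which was 76.6% inside a peak, so SUI3 says little about either end. Apart from Ty ORFs and the 38 genes, 1180 nuclear protein-coding genes had cover. Of these, 540 had more in the last part and 514 more in the first.

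Peaks crossed the outer bounds of these genes in both directions. The last base of the gene lay inside a peak in 7 of 38 genes (TEF1, TEF2, YEF3, ANB1, TIF3, TIF35 and TIF4631), or 18.4%, where 7.55% of all nuclear protein-coding genes and 5.97% of genes of like length had this. The first base did in 6 of 38 (EFT2, ANB1, GCD6, TIF4631, CDC33 and FUN12), or 15.8%, where 6.98% of all genes and 5.37% of genes of like length did. Among elongation factors the last base was inside a peak in 4 of 11 genes and the first in 2 of 11. DNA was cut with restriction enzymes before the immunoprecipitation, so a peak can extend as far as the fragment that held the hybrid, and places within a gene are only as fine as those fragments.

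**Figure D4:**
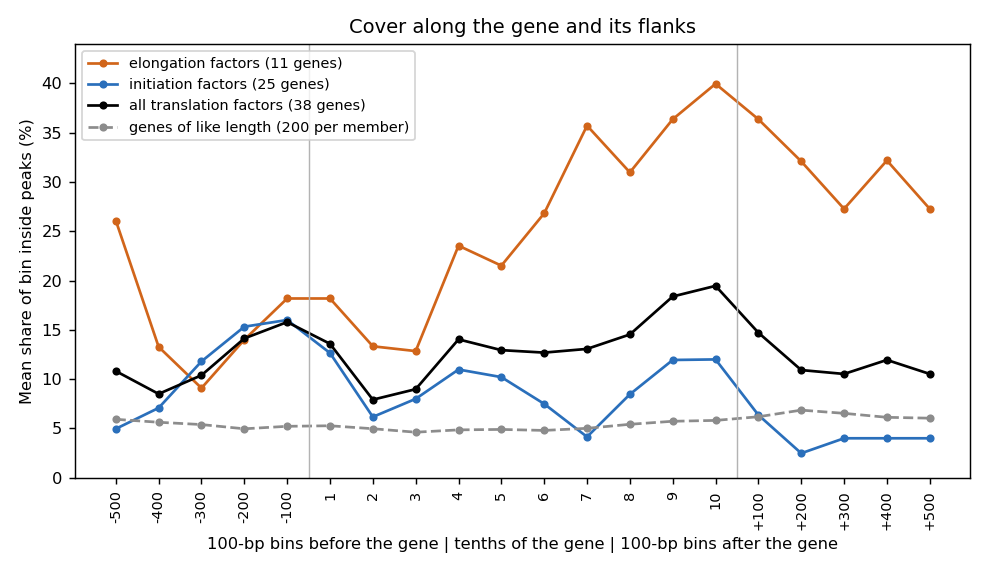
Mean share of each bin inside peaks (percent) over 5 bins of 100 bp before the gene, 10 equal bins along it and 5 bins of 100 bp after it, for elongation factors, initiation factors, all 38 translation factors and genes of like length. The elongation factor line is highest in bin 10 of the gene, at 40.0%, where initiation factors have 12% and genes of like length 5.81%.

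In the flanks, 9 of 38 genes (23.7%) had a peak in the 500 bp before the gene and 9 of 38 in the 500 bp after it, where 13.5% and 14.7% of all nuclear protein-coding genes did. Counting the gene and both flanks, 17 of 38 (44.7%) had a peak, where 30.6% of all genes did. For elongation factors this count was 9 of 11, all but CAM1 and HEF3, and for initiation factors 8 of 25. TEF4, EFB1, HYP2 and TIF6 had a peak only in a flank. The other 21 genes had none, and the nearest peak to them was 741 to 22301 bp away with a median of 4187 bp. Flanks may overlap a neighbouring gene, as at HYP2, CDC33 and TIF6.

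The 17 peaks that touched a translation factor gene had a median width of 475 bp (lowest 225, highest 3825) and a median score of 43 (lowest 15, highest 118). The 1390 nuclear peaks that touched any protein-coding gene had a median of 325 bp and a score of 24. In 14 of the 17 the summit lay inside the gene, in 2 before it (GCD6 and TIF4631) and in 1 after it (ANB1). Of the 17, 2 also touched a tRNA gene or Ty ORF, those of ANB1 and GCD6. Among the 1390 nuclear peaks that touched any protein-coding gene, 155 did, so the 2 are not particular to these peaks. A tRNA gene or Ty ORF lay within 1000 bp of 3 of the 13 touched genes (ANB1, GCD6 and TIF4631) and of 2 of the 25 untouched ones (HYP2 and GCD11). In the 10 kb on either side, a median of 7.78% was inside peaks around touched genes and 3.75% around untouched genes. A peak that touches a gene often runs on beyond it, and without those peaks the median around touched genes was 5.88%.

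**Figure D5:**
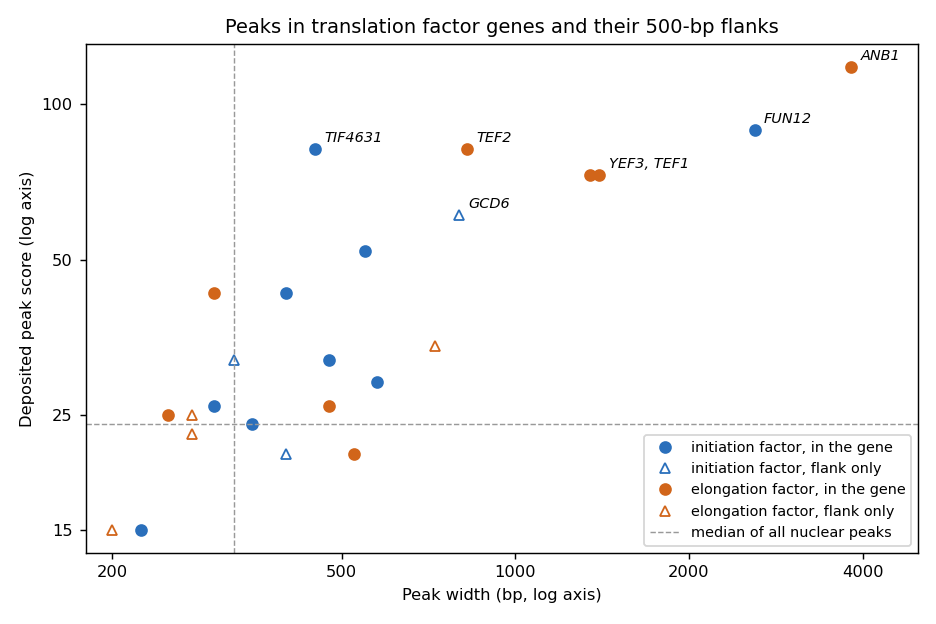
Width (bp, log axis) and deposited score (log axis) of the 24 peaks in translation factor genes (filled circles) or only in their 500 bp flanks (open triangles), blue for initiation and orange for elongation factors. Dashed lines mark the medians of all nuclear peaks, 325 bp and a score of 24; genes with a score over 60 are named, and the ANB1 peak is the widest and has the highest score.

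Other genes of the translation pathway had a smaller share of their bases inside peaks, in lists also chosen with earlier results of these data known. Of 24 other cytoplasmic translation proteins, such as the helicase DED1, the kinase GCN2 and the recycling ATPase RLI1, 6 were touched (25%) and none covered. Over all nuclear protein-coding genes 21.2% were touched and 4.42% covered. The 24 genes had 3.93% of bases inside peaks. MTQ2, for a subunit of the methyltransferase that acts on eRF1, had the most, with 45.0% (score 15), and STM1, for a ribosome-bound protein, had 24.3% (score 32). DED1, GCN2 and RLI1 had 0%. Of 20 cytoplasmic aminoacyl-tRNA synthetase genes, 6 were touched (30%) and none covered, with 3.04% of bases inside peaks. The highest of them was KRS1, for lysyl-tRNA synthetase, with 14.1% (score 23). Neither of these lists was touched less often than all genes. None of 6 genes for mitochondrial translation factors was touched. All nuclear protein-coding genes had 7.03% of bases inside peaks, and 4.87% without Ty ORFs and the 38 genes, beside 14.1% for the translation factors. Without FUN12, TEF1 and ANB1, left out after their values were seen, the translation factors had 8.37%. The other lists were not set beside genes of like length.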

How the data were processed

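The submitters' protocol labels describe spooled DNA cut by a mix of restriction enzymes, an input set aside before the S9.6 step, whole-genome amplification of both samples, and libraries of 200 bp fragments for the Ion Torrent PGM. Their processing notes name build sacCer3, MACS2 2.1.1.20160309 and SAMtools 1.7, per the labels; aligner, peak threshold and the role of the input in peak calling are not given in the sources. The authors' deposited score per peak has no stated scale and served to rank and select peaks within the list. Fold enrichment, p and q are 0 for each deposited peak and were left out. Read depth is unknown.

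The list holds 1723 peaks, 1687 of them nuclear, with edges on a 25 bp grid; the nuclear peaks took up 7.37% of 12061503 bp. Genes (R64 assembly, the sacCer3 sequence) came from a RefSeq table; all 38 names matched, and strand was read from systematic names. Coordinates are 1-based. Introns are counted in gene length. Ty ORFs are 88 unnamed ORFs, namely those over 4000 bp (5 known other genes excepted), those inside them, and those of the same length. Cover was computed with Python 3.11.15 and NumPy 2.4.6, and tested on simulated data (200 peaks, 4765 genes, 0 mismatches). Members and lists were chosen with earlier results of these data known. Named besides the members are genes under the same peaks and, from the other lists, genes chosen after their values were seen, since none was covered. No sequence is printed, because none was given with the files.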

Additional observations from a re-analysis of the deposited data

How the results depend on the processing

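Of 126 values recomputed under other settings, 101 stayed within 1.5 times the count, or within the exact 95% binomial interval of a share with genes as the number, and 1 turned its sign. This tally is no measure of stability, since the intervals are wide and treat genes as replicates. The elongation ratio counted as unchanged when it went from 5.40 to 1.66. Values of 0, as for the termination factors, TEF4 minus CAM1 and TIF1 minus TIF2, could not change when peaks were left out. Across the settings the cover relative to genes of like length ranged from 1.44 to 3.82 for all members. It ranged from 1.66 to 8.35 for elongation factors and from 1.18 to 2.39 for initiation factors. The number of touched members ranged from 12 to 13 across the peak settings, but the share of all nuclear protein-coding genes touched changed more. That share was 21.2% with all peaks and 11.5% in peaks with a score of 24 or more. It was 18.9% with every peak at a tRNA gene or Ty ORF left out, and 18.2% with 200 bp around each summit. With 200 bp around each summit, 0 members were covered (0 initiation and 0 elongation factors), where 0.317% of all nuclear protein-coding genes were. These windows held 4.27% of member bases. The mean share of a gene inside them was 4.32% for members and 2.42% for genes of like length. In this setting 5 members had a peak before the gene, and no share of all genes is given here beside that count. In these windows the last part of the gene minus the first was 2.55 points for all members and 9.91 for elongation factors. For initiation factors it was -0.48, where the sign turned from 1.19. In that setting TEF1 minus TEF2 was 2.90 points, EFT1 minus EFT2 -5.26, HYP2 minus ANB1 0 and TIF4631 minus TIF4632 8.01; a window of this length cannot cover 50% of a long gene. With 25% of the length as the limit, 9 members were covered (5 initiation, 4 elongation). With 75%, 1 elongation factor was, and with 90%, 1 member (0 initiation, 1 elongation). No share of all genes at these limits is given here, so these counts have nothing to be read against. With every peak at a tRNA gene or Ty ORF left out, 1 elongation factor was covered and HYP2 minus ANB1 was 0. In that setting 2.82% of all nuclear protein-coding genes were covered. In peaks with a score of 24 or more, EFT1 minus EFT2 was -8.90 points. Without the near-identical pairs 2 of 7 elongation factors were touched, where 21.2% of all nuclear protein-coding genes were. That choice was made after seeing the data, as were leaving out single genes and the ratios and end differences by role. Without TEF1 and TEF2 the last part minus the first was 2.16 points for all members and 5.33 for elongation factors. No paired analysis was possible because there is a single IP list and the input has no values here. Neither depth nor a second library was at hand to say which low-scoring peaks, such as that of SUI3, would recur.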
